A study of Mus musculus with 3 samples.

Results

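The 10 genes described here carry out or direct MHC class I antigen presentation. They are the heavy chains H2-K1 and H2-D1, the light chain B2m, the immunoproteasome subunits Psmb8, Psmb9 and Psmb10, the peptide transporter subunits Tap1 and Tap2, the loading chaperone Tapbp (tapasin) and the transactivator Nlrc5. They were taken by gene name from a table of 51826 rows, and each of the 10 was on a single row with a value in all 3 libraries. ST2 is a stromal cell line from mouse bone marrow, and its cells were co-transfected with a plasmid and 30 nM siRNA. Control cells carried empty vector with control siRNA. For NELL2 overexpression the vector was exchanged for a NELL2 construct, and for knockdown of Fn1, which encodes fibronectin, the control siRNA was exchanged for siRNA against Fn1. Every group was thus exposed to plasmid DNA, siRNA and lipofectamine, and no library of untransfected cells was analysed here. Which Fn1 siRNA was used for the library is not given in the sources used here. Messenger RNA was sequenced in 1 library of each group, so the differences describe single libraries of a single cell line and none could be checked against replicates. Values given in threes follow the order control, NELL2 overexpression, Fn1 knockdown.

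Class I molecules display peptides from inside the cell to cytotoxic T cells. The proteasome cuts proteins into peptides, and in cells exposed to interferon its catalytic subunits are partly replaced by the immunoproteasome subunits. The TAP transporter moves the peptides into the endoplasmic reticulum, tapasin holds the transporter next to empty class I molecules, and the heavy chain with its peptide and B2m then travels to the surface. NLRC5 acts at class I promoters as CIITA does at class II promoters, and stromal cells are known to present class I constitutively and to present more of it under interferon.

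The values are FPKM, fragments scaled to transcript length and to the total of each library, and ratios are given as log2 of (FPKM + 1) in 1 library over (FPKM + 1) in the other. The lower cutoff was a ratio of 5 to 4 in either direction (0.32 on the log2 scale), and cutoffs of 1.5-fold and 2-fold were also read, each for genes that reached 1 FPKM in either library. Depth was estimated at about 23000000, 23900000 and 24200000 fragments. Nell2 was at 0.640, 326 and 1.06 FPKM and Fn1 at 2802, 2489 and 137 FPKM, which is the direction the labels give. All 10 stromal markers examined, among them Col1a1 and Pdgfrb, were above 1 FPKM in every library. Of 12 markers of haematopoietic and antigen-presenting cells, 8 were under 1 FPKM in all 3 libraries, Ptprc was at 0.0633 FPKM or less and Itgax, Cd3e and Nkg7 were listed at 0. The summed level of these 12 was 19.3, 21.9 and 12.6 FPKM, most of it from Lyz2 and Cd68, and the part of such cells in the class I values was not tested.

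The class I genes are interferon- and NF-kB-responsive genes by textbook account. Letters of such elements stand upstream of the RefSeq start site in 3 of them. GGGNNTTCC and AANNGAAA matched in H2-K1 and H2-D1, and GAAANNGAA and AANNGAAA matched in B2m. Promoter windows of 300 bases, from 250 before to 50 after the start site, were available from RefSeq (GRCm38.p6) for 8 of the 10 genes, all but Tap2 and Nlrc5. The stretches below are shown because they hold the matches, written 5′ to 3′ on the strand of the gene. In the heavy chain stretches, capitals mark GGGNNTTCC, an NF-kB type sequence, and then AANNGAAA, the core bound by interferon regulatory factors, read on the opposite strand. In B2m they mark GAAANNGAA, an interferon response element core, with the overlapping AANNGAAA.
H2-K1 (chr17:34000399-34000478, minus strand): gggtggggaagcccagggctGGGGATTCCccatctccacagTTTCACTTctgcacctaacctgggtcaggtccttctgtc
H2-D1 (chr17:35262903-35262982, plus strand): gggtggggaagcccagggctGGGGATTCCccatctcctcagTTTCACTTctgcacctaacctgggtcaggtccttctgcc
B2m (chr2:122147528-122147607, plus strand): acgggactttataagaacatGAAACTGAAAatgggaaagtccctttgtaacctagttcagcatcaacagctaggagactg

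The H2-K1 and H2-D1 stretches were identical at 78 of 80 bases (97.5%). The H2-D1 stretch lies inside the gene as drawn in GENCODE M21, which begins at chr17:35262730, before the RefSeq start site. The NF-kB letters began 111 or 125 bases before the start site in H2-K1, which has a pair of listed start sites, and 171 bases before it in H2-D1, and the interferon response letters of B2m began 139 bases before it. Searched on both strands, GGGNNTTCC was present in 2 of the 8 class I genes and in 5.82% of all 32851 windows. Longer NF-kB spellings, which this pattern cannot match, were not searched, so no match to it says nothing of NF-kB sequences in B2m or the other genes. GAAANNGAA was present in 1 of 8 and in 8.56% of all windows, and AANNGAAA in 3 of 8 and in 23.9%. AANNGAAA overlaps GAAANNGAA in B2m, so these matches are not separate. CCAAT, the letters of the NF-Y site, was present in 6 of 8 and in 37.4% of all windows. The windows of Tap1 and Psmb9 overlap, and the same CCAAT bases are counted for both genes. TGACGTCA, the cyclic AMP response element, was in none of the 8 and in 1.79% of all windows, which says only that these letters were not in these windows. A match is a description of sequence and was not tested as a binding site.

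In the control library the class I genes covered a wide range. B2m was the highest at 1788 FPKM, followed by H2-D1 at 243, H2-K1 at 144 and Tapbp at 139 FPKM. Psmb8 (46.9), Psmb10 (37.99), Tap2 (27.7) and Tap1 (26.9 FPKM) were at intermediate levels, and Nlrc5 (10.1) and Psmb9 (9.32 FPKM) were the lowest. The order of neighbours such as H2-K1 and Tapbp, or Tap1 and Tap2, rests on small differences without replicates. All 10 genes were thus at 5 FPKM or more in every library.

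**Figure D1:**
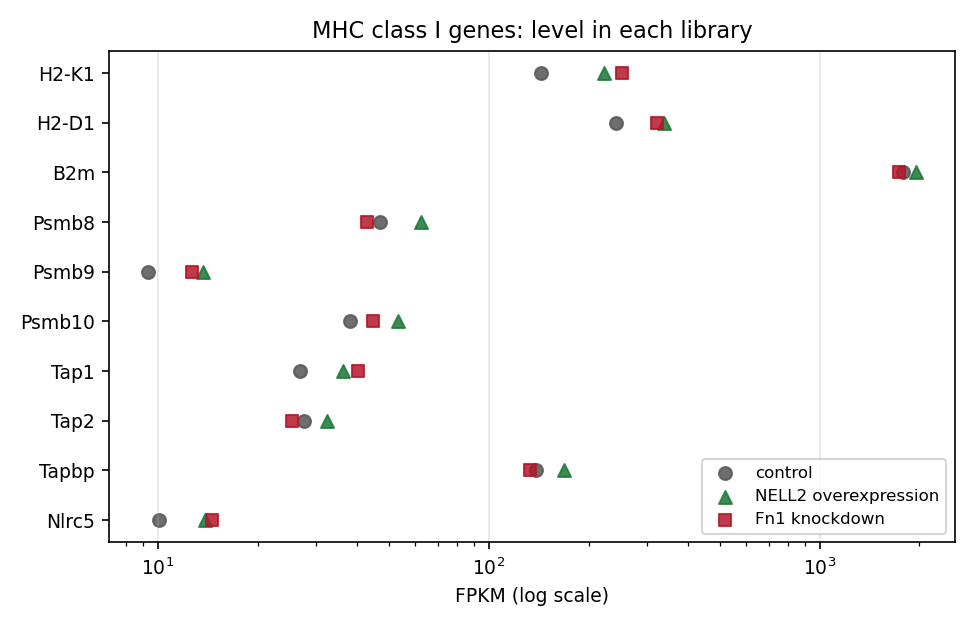
FPKM of the 10 class I genes (log scale) by library, with circles for the control, triangles for NELL2 overexpression and squares for Fn1 knockdown, 1 library each. Levels run from 9.32 FPKM for Psmb9 in the control to 1957 FPKM for B2m with NELL2 overexpression, and the control symbol is the leftmost for 6 genes.

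With NELL2 overexpression, all 10 class I genes were higher than in the control library. The median log2 ratio was 0.42, beside 0.0072 over the 12572 genes that passed the same filter, of which 52.3% were above 0. Of the 10 genes, 7 were past the lower cutoff upward and none was past it downward, against 5.50% of all tested genes higher and 4.05% lower. H2-K1 alone was past 1.5-fold, where the background was 1.54%, and none was past 2-fold, where it was 0.374% higher and 0.278% lower. The differences were therefore small for each gene and of 1 direction.

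After Fn1 knockdown the genes divided. H2-K1, Tap1, Nlrc5, Psmb9 and H2-D1 were past the lower cutoff upward, Psmb10 was higher by less, and B2m, Psmb8, Tap2 and Tapbp were slightly below the control. The count of 5 of 10 past it upward stands beside 10.2% of 12574 tested genes, and none of the 10 was past it downward, beside 12.0%. H2-K1 was again the only gene past 1.5-fold (background 2.92%), and none was past 2-fold (background 0.684% higher and 0.549% lower). The median log2 ratio was 0.32 with all 10 genes and 0.090 without the heavy chains, beside -0.0028 over all tested genes. The count without the heavy chains was 3 of 8. The comparisons share the control library, so a low control value raises both ratios of a gene, and the 5 genes past the lower cutoff in both are not independent evidence of a shared effect.

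**Figure D2:**
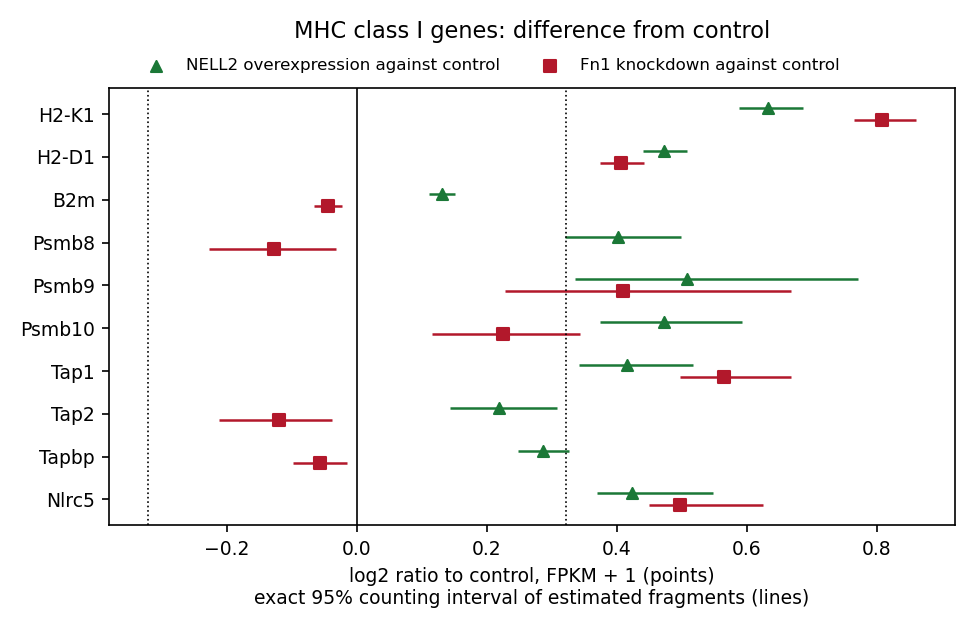
Log2 ratio of FPKM + 1 to the control for each class I gene with NELL2 overexpression (triangles) and Fn1 knockdown (squares). Dotted lines mark the lower cutoff of 0.32. Horizontal lines are exact 95% intervals for counting error only, from estimated fragments. They are of the ratio without a pseudocount, so points need not lie at their centres. All 10 triangles lie right of 0, whereas the squares of B2m, Psmb8, Tap2 and Tapbp lie left of it.

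The heavy chains form the peptide groove of the class I molecule and are encoded at opposite ends of the mouse H2 complex. H2-K1 (ENSMUSG00000061232.16, GRCm38 chr17:33996017-34000347, minus strand) had levels of 144, 223 and 252 FPKM. The treated values were 55.5% and 75.6% above the control, log2 ratios of 0.63 and 0.81, and only 156 and 172 of all tested genes had a larger ratio. H2-D1 (ENSMUSG00000073411.11, chr17:35262730-35267499, plus strand) was at 243, 337 and 322 FPKM. Both treated libraries were again above the control, by 38.9% and 32.6%. The log2 ratios were 0.47 and 0.41, below those of H2-K1 in both comparisons. H2-K1 stood at 59.2%, 66.2% and 78.3% of the H2-D1 level.

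The heavy chains are polymorphic, and the haplotype of ST2 cells is not given in the sources used here, whereas the reference is that of C57BL/6J. In that reference, none of the 100-base windows of the longest coding H2-K1 transcript recurred in a transcript of another gene, and 4.64% of those of H2-D1 did. Shorter stretches that heavy chain genes have in common were not counted.

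B2m (ENSMUSG00000060802.8, chr2:122147686-122153083, plus strand) encodes the invariant light chain that class I heavy chains need for surface expression. Its level was 1788, 1957 and 1734 FPKM, which is 9.48% above and slightly below the control. The log2 ratios of 0.13 and -0.044 were the closest to 0 of the 10 genes in each comparison. The summed heavy chains were at 386, 561 and 574 FPKM, which is 21.6%, 28.6% and 33.1% of the B2m level. More heavy chain message per B2m message was thus present in both treated libraries than in the control.

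The immunoproteasome subunits replace constitutive subunits in newly assembled proteasomes and alter which peptides are cut. Psmb8 (LMP7, chr17:34197721-34201454, plus strand) was at 46.9, 62.3 and 42.9 FPKM, log2 ratios of 0.40 and -0.13. Its exons overlapped the gene Gm20496 on the opposite strand at 498 bases. Psmb9 (LMP2, chr17:34181987-34187764, minus strand) was at 9.32, 13.7 and 12.7 FPKM, log2 ratios of 0.51 and 0.41. Psmb10 (MECL-1, chr8:105935735-105938444, minus strand) was at 37.99, 53.1 and 44.6 FPKM, log2 ratios of 0.47 and 0.22. All 3 were highest in the NELL2 overexpression library, and Psmb8 alone was lowest after Fn1 knockdown. Psmb9 had the fewest estimated fragments, about 290, 442 and 416. For counting error alone, the exact 95% interval of its log2 ratio without a pseudocount was 0.34 to 0.77 with NELL2 overexpression. After Fn1 knockdown that interval was 0.23 to 0.67. The next lowest estimate was that of Psmb10 in the control, about 1146 fragments.

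Each immunoproteasome subunit was set beside the constitutive subunit whose place it takes. Psmb8 made up 28.5% of the summed FPKM of Psmb8 and Psmb5 in control cells, 33.6% under NELL2 overexpression and 25.1% under knockdown. The share of Psmb9 in Psmb9 and Psmb6 was 6.67%, 8.94% and 7.66%, and that of Psmb10 in Psmb10 and Psmb7 was 26.1%, 30.7% and 26.1%. Over the 3 pairs the immunoproteasome share was 20.96%, 25.2% and 19.7%. The summed immunoproteasome level was 94.2, 129 and 100.1 FPKM, and the summed constitutive level was 355, 382 and 407 FPKM. The immunoproteasome sum was thus highest under NELL2 overexpression and the constitutive sum highest under knockdown.

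**Figure D3:**
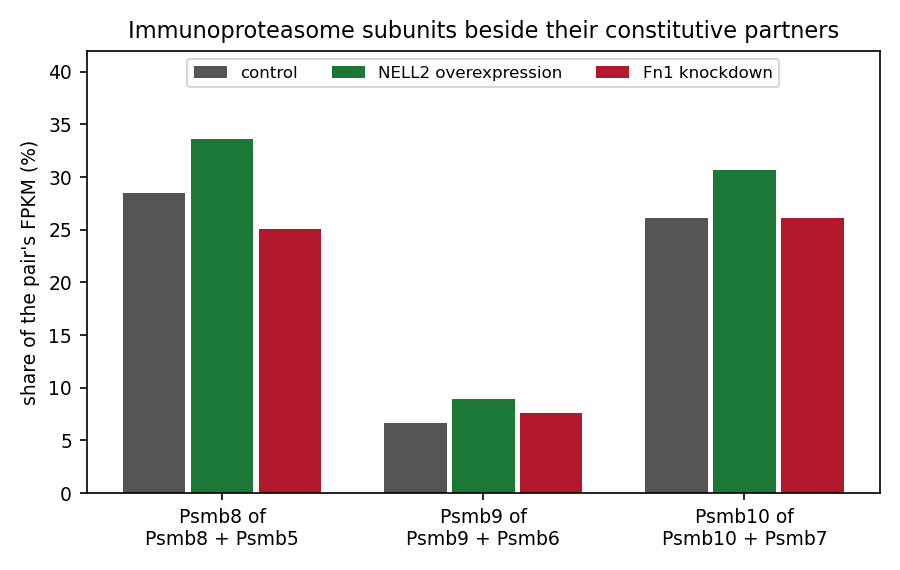
Share of each immunoproteasome subunit in the summed FPKM of the subunit and its constitutive partner (%), with 1 library per bar and hence no error bars. The NELL2 overexpression bar is the highest of each pair, from 8.94% for Psmb9 to 33.6% for Psmb8.

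Tap1 and Tap2 form the peptide transporter as a heterodimer and differed in their pattern. Tap1 (chr17:34187553-34197225, plus strand) was at 26.9, 36.2 and 40.2 FPKM, or 34.6% and 49.7% above the control, log2 ratios of 0.42 and 0.57. Tap2 (chr17:34203527-34216321, plus strand) was at 27.7, 32.4 and 25.4 FPKM, log2 ratios of 0.22 and -0.12. The Tap1 level was 0.970, 1.12 and 1.58 times that of Tap2, so the pair was near parity in control cells and unequal under knockdown. Exons of Tap2 overlapped the genes Gm15821 and Gm20496 on the opposite strand at 698 bases.

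Tap1 and Psmb9 are transcribed away from each other, and 225 bases lie between their RefSeq start sites. This stretch is shown because both genes were higher than the control in both treated libraries. It is written on the strand of Tap1, and capitals mark the CCAAT match. Neither GGGNNTTCC nor AANNGAAA was in the windows of these genes.
Tap1 and Psmb9 (chr17:34187331-34187555, plus strand): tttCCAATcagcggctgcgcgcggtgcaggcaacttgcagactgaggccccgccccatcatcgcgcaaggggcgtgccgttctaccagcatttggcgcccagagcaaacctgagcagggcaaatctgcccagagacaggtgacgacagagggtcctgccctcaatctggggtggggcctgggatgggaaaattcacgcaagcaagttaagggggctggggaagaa

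Exons of Tap1 and Psmb9 overlapped at 212 bases on opposite strands in GENCODE M21, and whether strand was used in counting is not stated. Of the 100-base windows of the longest coding Psmb9 transcript, 9.02% also occurred in Tap1. The Psmb9 level was 0.347, 0.378 and 0.316 times that of Tap1, so the ratio of the pair differed less between libraries than that of Tap1 to Tap2.

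Tapbp (chr17:33915899-33929292, plus strand), the tapasin gene, was at 139, 169 and 133 FPKM, log2 ratios of 0.29 and -0.056. In the antisense gene Gm19412, 13.9% of its 100-base windows recurred, and its exons overlapped those of Zbtb22 on the same strand at 149 bases. Nlrc5 (ENSMUSG00000074151.13, chr8:94434356-94527272, plus strand) was at 10.1, 13.8 and 14.6 FPKM, or 37.4% and 45.2% above the control, log2 ratios of 0.42 and 0.50. With H2-K1 and Tap1, it was 1 of the 3 genes that were highest after Fn1 knockdown, and the other 7 were highest with NELL2 overexpression. The fewest estimated fragments among these 3 genes were the 1753 or so of Nlrc5 in the control. Exons of Nlrc5 overlapped the gene 9330175E14Rik on the opposite strand at 78 bases.

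The treated libraries were also set directly against each other, which leaves the shared control out. Psmb8 had the largest difference, 0.53 on the log2 scale higher under NELL2 overexpression than under knockdown. Tap2 and Tapbp were each 0.34 higher, Psmb10 0.25 higher and B2m 0.17 higher. H2-K1 and Tap1 differed in the other direction, by -0.18 and -0.15. For H2-D1, Psmb9 and Nlrc5 the differences of 0.066, 0.099 and -0.074 were smaller. The 2 immunoproteasome subunits Psmb8 and Psmb10 thus differed more between the treated libraries than Psmb9 did.

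Of the 10 genes, 7 lie on chromosome 17, and their neighbours there were read for comparison. Between Tapbp and H2-D1, 45 other genes without an H2 name passed the filter in the NELL2 comparison, and their median log2 ratio was -0.0028, with 5 past the lower cutoff upward and 1 downward. In the Fn1 comparison 44 such genes had a median of -0.00063, with the same counts of 5 and 1. The shares of all tested genes past it upward and downward were 5.50% and 4.05% in the NELL2 comparison. They were 10.2% and 12.0% in the Fn1 comparison. The set of neighbours was chosen after the class I values had been seen.

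The other class I heavy chains were then examined, namely the nonclassical H2 genes and the class I-like genes Cd1d1, Mr1, Hfe and Fcgrt. Of 17 in the table, 13 were at 1 FPKM or more. With NELL2 overexpression 6 of the 13 were past the lower cutoff upward, none downward, and the median log2 ratio was 0.26. Over all tested genes, 5.50% were past it upward and 4.05% downward. After Fn1 knockdown 7 were past it upward and 1 downward, beside 10.2% and 12.0% of all tested genes, with a median of 0.37. H2-Q4, H2-Q6 and H2-Q7 were past 2-fold upward, beside 0.684% of all tested genes.

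H2-Q4 was at 54.1, 87.1 and 139 FPKM. H2-Q6 was at 3.89, 7.85 and 18.9 FPKM, and its log2 ratios of 0.86 and 2.02 were the largest of this list. H2-Q7, which like H2-Q6 belongs to the Qa-2 genes, was at 3.78, 6.75 and 13.7 FPKM. These genes had between 13.0% and 16.4% of their 100-base windows in common with other genes, H2-Q6 and H2-Q7 with each other above all, so their separate levels are uncertain. Summed over the 3 genes the level was 61.8, 101.7 and 171 FPKM, and this order of libraries does not depend on how reads were divided among the 3. The sum does not cover sequence shared with genes outside the 3, such as the 11.1% of H2-Q4 windows also found in Gm11131. H2-T23, which encodes Qa-1, was at 27.8, 36.6 and 32.8 FPKM. By contrast, Cd1d1, which presents lipids, was at 2.78, 2.42 and 1.47 FPKM. H2-L is not named in the table.

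Genes of the further machinery of peptide supply were examined next. Of 10 genes for supply and loading in the endoplasmic reticulum, 2 were past the lower cutoff upward and none downward with NELL2 overexpression. The shares of all tested genes were 5.50% and 4.05%, and the list median was 0.053. The 2 genes were the trimming peptidase Erap1, at 18.9, 24.3 and 22.5 FPKM, and the tapasin-related Tapbpl, at 6.89, 8.99 and 8.46 FPKM. The chaperones Calr and Pdia3 of the loading complex had log2 ratios of -0.00092 and 0.044. After Fn1 knockdown 2 of the 10 were past the lower cutoff upward, beside 10.2% of all tested genes, and the median was 0.23. These 2 were the general folding genes Hspa5 (148 to 255 FPKM) and Ganab (44.98 to 76.3 FPKM).

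Among 9 other proteasome genes, only Psme2 was past the lower cutoff upward with NELL2 overexpression, beside 5.50% of all tested genes. Psme2 and Psme1 encode the interferon-inducible proteasome activator and were at 109, 136 and 119 FPKM and at 57.8, 72.2 and 57.4 FPKM. The list median was 0.15 with NELL2 overexpression and 0.13 after Fn1 knockdown. None was past the cutoff after Fn1 knockdown, beside 10.2% higher and 12.0% lower of all tested genes. Psmb7, the constitutive partner of Psmb10, had the largest ratio there, 0.23.

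The factors known to act at class I promoters had medians near or below 0. Of 14 such genes, 1 was past the lower cutoff upward and 1 downward with NELL2 overexpression (median 0.030). After Fn1 knockdown 1 was past it upward and 2 downward (median -0.10). The shares of all tested genes were 5.50% and 4.05%, then 10.2% and 12.0%, in the same order. Rfx5, the DNA-binding subunit of the RFX complex through which NLRC5 reaches these promoters, was at 5.85, 4.19 and 2.85 FPKM. Irf2 was at 5.66, 7.97 and 7.35 FPKM, and Irf1 at 17.0, 17.5 and 15.7 FPKM. Nlrc5 itself thus stood higher in both treated libraries while Rfx5 stood lower in both.

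**Figure D4:**
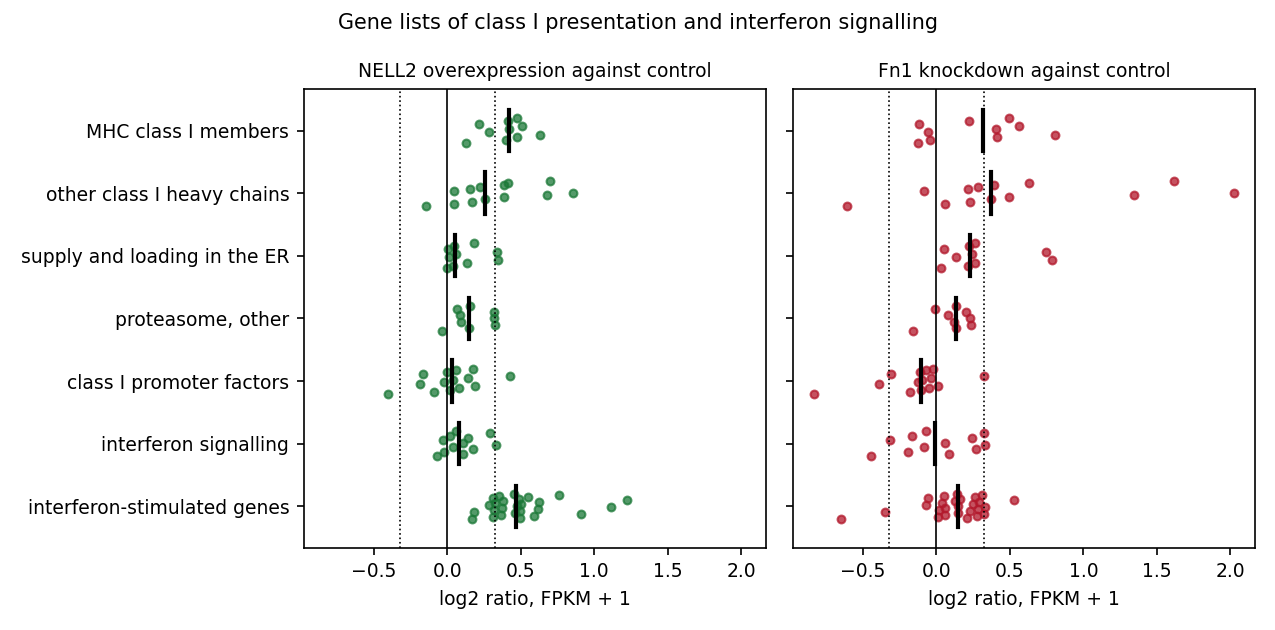
Log2 ratio of FPKM + 1 to the control for each gene at 1 FPKM or more in either library (points), by list, with the list median (black bars) and the lower cutoff of 0.32 (dotted lines); left, NELL2 overexpression, and right, Fn1 knockdown. The class I genes and the interferon-stimulated genes have medians of 0.42 and 0.47 on the left and of 0.32 and 0.15 on the right.

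Interferon-stimulated genes were set beside the class I genes, since the latter are part of the same response. Of 26 such genes, 20 were past the lower cutoff upward with NELL2 overexpression and none downward, with a median log2 ratio of 0.47. Of all tested genes, 5.50% were past it upward and 4.05% downward. After Fn1 knockdown 3 were past it upward and 2 downward, beside 10.2% and 12.0% of all tested genes, with a median of 0.15. Ube2l6, the ISG15-conjugating enzyme, was at 50.4, 119 and 47.9 FPKM and the chemokine Cxcl10 at 46.7, 102 and 36.4 FPKM. Both were past 2-fold upward with NELL2 overexpression, beside 0.374% of all tested genes. Cxcl9, another chemokine, differed most in the list after Fn1 knockdown, where it was lower, at 2.11, 3.38 and 0.977 FPKM.

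The 12 interferon receptor and signalling genes had medians of 0.082 and -0.0068. With NELL2 overexpression only Socs1, a feedback inhibitor of JAK kinases, was past the lower cutoff upward, beside 5.50% of all tested genes. None of the list was past it downward, and Socs1 was at 5.91, 7.70 and 7.67 FPKM. None of the 11 interferon genes examined reached 1 FPKM in any library. Ifnb1 was at 0.0581, 0.0281 and 0.250 FPKM, and Ifng was listed at 0 in all 3. The lists were chosen with earlier results of these data known, and whether the interferon response accounts for the class I values was not tested.

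The pattern most like that of the class I genes was sought among 5741 genes that reached 10 FPKM in every library, by the Euclidean distance of their 2 log2 ratios from the class I medians of 0.42 and 0.32. The nearest 5, apart from the class I genes, were Snrpe (distance 0.020), Aldh7a1 (0.023), Usp18 (0.047), Ifi205 (0.048) and a row whose name a spreadsheet had turned into a date (0.049). Usp18 and Ifi205 are known interferon-stimulated genes, Snrpe encodes a core spliceosome protein and Aldh7a1 an aldehyde dehydrogenase. With 3 libraries and a shared control the measure rests on 2 differences, and it is a description only.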

How the data were processed

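Polyadenylated RNA from ST2 cells was sequenced as 150-base paired ends on an MGISEQ-2000, and the authors mapped and filtered reads with HISAT2. GRCm38 and DESeq are named in the submitters' processing notes, and how DESeq scaling entered the deposited table is not given in the sources used here. The deposited values are FPKM per gene, computed by the authors with a program and annotation not given in the sources used here. Of 51826 rows in the table, 26611 held 0 in every library. Ratios used a pseudocount of 1, which understates changes of low genes, and a filter of 1 FPKM in either library, and medians and counts are over genes that passed it. No test was run and no p-value computed, because each group had 1 library.

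Depth was estimated from low values, as the most frequent smallest step of FPKM times length among genes with 1 transcript of 600 bases or more. Between 21.4% and 22.7% of such low values lay within 0.02 of a whole fragment, so whole reads were not recovered. Fragments per gene used the longest coding transcript in GENCODE M21 and are approximate. Exact 95% intervals (Clopper-Pearson, scipy 1.17.1) cover counting error only and are of the ratio without a pseudocount. Scripts were tested on simulated data. Alternatives were other pseudocounts, filters and cutoffs, median-of-ratios scaling and leaving out the heavy chains.

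The genes and lists were chosen with earlier results of these data known. Genes named are the 10 class I genes, Nell2, Fn1, markers, from each list those past 2-fold and the largest ratio in each comparison, interferon and class II genes by level, and the 5 nearest in pattern. Any other gene, such as Psme1, Calr, Irf1, H2-T23 and Cd1d1, was chosen after its values were seen.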

Additional observations from a re-analysis of the deposited data

How the results depend on the processing

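The counts of class I genes past the cutoff depended on the cutoff. With NELL2 overexpression 7 of 10 were past the lower cutoff, 1 past 1.5-fold and 0 past 2-fold, and after Fn1 knockdown the numbers were 5, 1 and 0. Leaving out H2-K1 and H2-D1 gave 3 of 8 genes and a median log2 ratio of 0.090 after Fn1 knockdown, against 5 of 8 and 0.41 with NELL2 overexpression. The smaller values follow from removing genes with higher ratios. With a pseudocount of 5 the count after Fn1 knockdown was 4. Pseudocounts of 0.1 and 5 gave medians of 0.44 and 0.37 with NELL2 overexpression and 0.32 and 0.26 after Fn1 knockdown. Median-of-ratios scaling gave 0.41 and 0.31, with factors between 0.998 and 1.004, so it tests little. Neither removing the filter nor raising it to 5 FPKM could change these values, as all 10 genes passed both. Of 60 values of single genes under another pseudocount or scaling, none changed sign, and 58 stayed within the counting interval. The 2 that did not were those of Nlrc5 with a pseudocount of 5, at 0.32 and 0.38. The counting interval is of the ratio without a pseudocount, whereas the 60 values all include a pseudocount. No paired analysis was possible because there was a single library of each kind, so leaving 1 out was not possible either. Low depth limits Psmb9 most, at about 290 estimated fragments in the control.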

Other observations

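The class II genes were low and unequal in level. Ciita, the class II counterpart of Nlrc5, was at 0.00787 FPKM or less, H2-Aa at 0.0372 FPKM or less and H2-Ab1 between 0.400 and 0.626 FPKM. H2-DMb1, the highest of the list, was at 5.47, 5.64 and 4.77 FPKM in the order control, NELL2 overexpression, Fn1 knockdown. Of 9 class II genes, 4 reached 1 FPKM in either library. None of them was past the lower cutoff of 0.32 (log2) with NELL2 overexpression, beside 5.50% higher and 4.05% lower of all tested genes. After Fn1 knockdown 2 of them were past it downward, beside 12.0% of all tested genes. These 2 were Cd74 (1.09, 1.49 and 0.441 FPKM) and H2-DMa (3.51, 3.29 and 2.50 FPKM). Of 12 haematopoietic and antigen-presenting cell markers, 4 reached 1 FPKM in every library, and they did not share a direction after Fn1 knockdown. Cd68 was at 4.08, 3.54 and 1.57 FPKM and Lyz2 at 11.8, 13.9 and 7.22 FPKM, whereas Cd14 was at 1.74, 1.99 and 2.39 FPKM and Csf1r at 1.06, 1.23 and 1.06 FPKM. The part of such cells in the class II values was not tested.

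Among 8 ligands of inhibitory and natural killer receptors, Cd274, which encodes PD-L1, had the largest ratio in both comparisons. It was at 3.76, 6.67 and 7.65 FPKM, log2 ratios of 0.69 and 0.86. Cd47 was at 20.05, 25.6 and 25.3 FPKM. Ulbp1, a ligand of the activating receptor NKG2D, was at 2.87, 2.45 and 1.90 FPKM. The list medians were -0.016 and -0.0078, so these values were not shared by the list.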
